A study of Homo sapiens with 8 samples.

Results

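MDA-MB468 cells made resistant to Acetalax were compared with the parental cells they came from, both without drug at the time of harvest. The comparison rests on 2 of the 8 RNA-seq libraries of the study, 1 library of CE (chronic exposure) control cells and 1 library of parental control cells, chosen by their column names and not by any measured value. Each gene was then looked up in a pair of libraries that shared no reads with the first, CE and parental MDA-MB468 cells given 1 μmol/L Acetalax for 6 hours. MDA-MB468 is an established triple-negative breast cancer line that lacks the estrogen and progesterone receptors and HER2 amplification, and Acetalax is oxyphenisatin acetate, a former laxative. The CE cells had been passaged in stepwise doubled Acetalax, were designated resistant at 40 μmol/L, and were grown without the drug for 2 weeks before RNA was taken. The parental cells had no such exposure, and no gene was edited in any group. The study calls the CE cells clones without saying how many, and 1 selected population was sequenced, so an effect of resistance cannot be told apart from other differences between this population and its parent. The same 4 conditions existed in BT549, another triple-negative line, and its 4 libraries are used below only for comparison.

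TRPM4, a calcium-activated channel for sodium and potassium ions, is the proposed route of Acetalax killing. A cell that survives long exposure to a drug may differ from its parent in drug entry and export, in the enzymes that alter small molecules, in lipid supply, in its epithelial state, or in the number of copies of chromosome segments that the expanding clone carried. Detoxification is shared among aldehyde dehydrogenases, aldo-keto reductases, glutathione transferases, glucuronosyltransferases and export pumps of the ABC family, and many of these genes are targets of the transcription factor NRF2. Sterol and fatty acid synthesis genes are controlled together by the SREBP transcription factors, which are released when membranes hold little sterol.

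The 4 MDA-MB468 libraries held from 44147440 to 48626734 counts on genes, and all 8 libraries from 42261122 to 54241728. Levels are given as CPM, read counts scaled to the same total on genes in every library, in the order parental control, CE control, parental Acetalax and CE Acetalax. A difference is CE minus parental on the log2(FPKM + 1) scale, where FPKM is CPM per kilobase of merged exon, and it understates the change of weakly expressed genes. With 1 library per side the untreated difference has no replicate check, so no p-value is given for it, and a limit set by a count of 0 covers counting error only. A gene is called where edgeR's quasi-likelihood test over the 4 MDA-MB468 libraries gave an adjusted p under 0.05 for CE against parental cells, with Acetalax as a second term and 1 residual degree of freedom. The test takes the untreated and the treated pair as the replicates of the CE effect, nothing in the labels says that the pairs are separate selections, and its p-values measure only the spread between these libraries.

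Epithelial markers were high in both cultures. The 7 epithelial markers summed to 6175 CPM in parental control and 7776 CPM in CE control cells, and KRT8, a keratin of simple epithelia, had 2276, 3218, 2343 and 4033 CPM. None (0) of the 4 fibroblast markers was measured at a mean of 1 CPM or more, and of the 6 blood cell markers only CD14 did, at 47.2, 13.8, 20.4 and 6.33 CPM, and its part in the results was not tested. In RNA from bulk cells, fewer cells that express a gene and less of its RNA per cell cannot be told apart. The share of counts on the mitochondrial genome was 10.0% in parental control, 9.98% in CE control, 7.89% in parental Acetalax and 8.87% in CE Acetalax cells. The closest 2 of these libraries, parental and CE control, still differed far beyond sampling noise, with a chi-square of 44.4 per degree of freedom over 17663 genes.

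Most genes differed little between the untreated CE and parental libraries. Of 13601 genes whose CPM averaged 1 or more over the 4 libraries, 12753 (93.8%) differed by less than 0.5. The difference was at least 1 in CE cells for 59 genes (0.434%) and at most -1 for 98 genes (0.721%). In the treated pair, 72 genes (0.529%) were at least 1 higher and 153 (1.12%) at least 1 lower, 225 (1.65%) in all. Of the 59 genes higher in the untreated pair, 54 had the same sign in the treated pair, 32 of them again by at least 1 against 0.235% of all genes for both pairs. All 98 lower genes had the same sign in the treated pair, and 71 were again lower by at least 1 (0.522% of all genes for both pairs). Their median difference was 1.25 untreated and 1.08 treated for the higher genes, and -1.34 and -1.24 for the lower ones. Over the 13601 genes, Pearson's r between the untreated and the treated differences was 0.66 and Spearman's rho 0.51. This is a correlation across genes, which are not independent replicates.

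The test over the 4 libraries called 1647 of 17865 genes (9.22%), 717 higher (4.01%) and 930 lower (5.21%) in CE cells. Of the genes past 1 in the untreated pair, which is part of this fit, 52 of the 59 higher and 98 of the 98 lower genes were called.

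**Figure D1:**
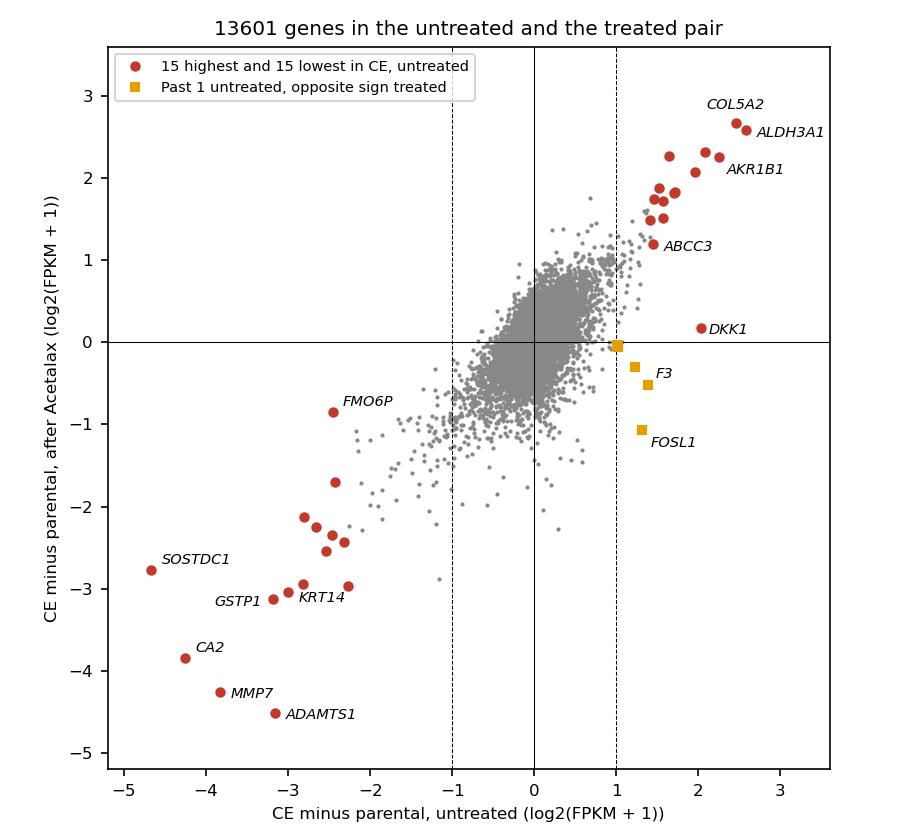
Each grey point is 1 of 13601 genes, with CE minus parental on the log2(FPKM + 1) scale in the untreated pair on the x axis and in the Acetalax-treated pair on the y axis, 1 library per condition. Red points are the 15 genes highest and the 15 lowest in untreated CE cells, orange squares the 5 genes past 1 untreated with the opposite sign when treated, and the dashed lines mark -1 and 1. The lower left holds genes low in CE cells with and without drug, while DKK1 at 2.03 and 0.17 and FOSL1 at 1.31 and -1.07 leave the diagonal.

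The genes that stood highest in CE cells included enzymes that detoxify aldehydes and ketones. ALDH3A1, an aldehyde dehydrogenase that oxidizes reactive aldehydes, had 7.90, 66.5, 5.39 and 51.7 CPM. Both CE libraries were above both parental libraries, 8.42-fold in the untreated pair, and ALDH3A1 rose with a log2 fold change of 3.10 (SE 0.15, edgeR adjusted p = 1.72e-06). AKR1B1, aldose reductase, had 94.4, 462, 92.2 and 454 CPM, and rose by 2.23 on the log2 scale (SE 0.097, edgeR adjusted p = 6.77e-07). AKR1B10, a reductase of retinal and lipid aldehydes and the neighbour of AKR1B1 on chromosome 7, had 33.7, 137, 22.5 and 100.3 CPM and rose by 2.02 (SE 0.13, edgeR adjusted p = 8.02e-06). AKR1B10 has a near-identical neighbour, AKR1B15, so its count is uncertain. ABCC3, an export pump for bile acids and glucuronides, had 64.1, 192, 94.8 and 229 CPM and rose by 1.36 (SE 0.12, edgeR adjusted p = 6.69e-05). For each of these 4 genes both CE libraries were above both parental libraries.

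Others of the 15 had different roles. COL5A2, a chain of fibrillar collagen V, had 19.02, 137, 20.4 and 169 CPM, a difference of 2.46 untreated and 2.67 treated. L1CAM, a cell adhesion molecule of neurons and invading tumor cells, had 2.24, 23.7, 2.697 and 28.1 CPM, with differences of 1.71 and 1.83. IL7R, the interleukin-7 receptor alpha chain, had 1.79, 27.0, 6.46 and 56.3 CPM, with 2.08 and 2.32. All 3 rose, with both CE libraries above both parental ones. OXTR, the oxytocin receptor, NR2F1, an orphan nuclear receptor, SYTL2, a vesicle transport protein, FBP1, an enzyme of gluconeogenesis, AQP1, a water channel, SPRR1B, a protein of the cornified envelope, and the long noncoding RNA RP11-838N2.3 also rose, with untreated differences from 1.42 for RP11-838N2.3 to 1.71 for NR2F1. SPRR1B rested on few reads, at 0.494 CPM in parental control and 2.85 CPM in CE control cells.

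DKK1 was the exception among the 15 genes highest in CE cells. DKK1, a secreted inhibitor of WNT signalling, had 10.9, 51.2, 203 and 229 CPM. The treated parental library was near the treated CE library, and the difference between CE and parental cells went from 2.03 untreated to 0.17 treated. DKK1 was not called (log2 fold change 1.10, SE 0.36, edgeR adjusted p = 0.094). The other 14 of these 15 genes were past 1 in the treated pair too, and the same number was called.

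The genes lowest in CE cells included secreted proteins at or near 0 reads. SOSTDC1, a secreted antagonist of BMP and WNT signals, had 60.3, 0, 15.01 and 0.084 CPM. The untreated CE library held 0 reads of SOSTDC1 against 2932 in the parental library, at least 887-fold lower when 3 counts are taken as the limit in CE cells. CA2, a cytosolic carbonic anhydrase, had 36.8, 0.023, 28.0 and 0.084 CPM, which was 1 read in untreated CE cells. MMP7, the matrix metalloproteinase matrilysin, had 33.7, 0.227, 46.8 and 0.252 CPM, and was 149-fold lower untreated. ADAMTS1, a secreted protease that cleaves proteoglycans, had 60.6, 0.317, 172 and 0.568 CPM, 191-fold lower untreated, and had the smallest adjusted p of all genes (log2 fold change -8.06, SE 0.21, edgeR adjusted p = 3.74e-08). In parental cells ADAMTS1 was higher after Acetalax, whereas the CE library stayed under 1 CPM with drug.

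KRT14, a keratin of basal epithelial cells, had 56.6, 5.10, 64.6 and 5.89 CPM, a difference of -3.0004 untreated and -3.04 treated. EPB41L2, a protein of the membrane skeleton, had 143, 16.1, 131 and 14.05 CPM. CRYAB, the small heat shock protein alpha-B crystallin, had 65.9, 8.31, 47.2 and 5.74 CPM. All 3 had both CE libraries under both parental ones, and they fell with log2 fold changes of -3.53, -3.25 and -3.08. AARD, GPNMB, a glycoprotein of lysosomes and melanosomes, SLC34A2, a sodium-phosphate cotransporter, NEFH, the heavy neurofilament chain, XAGE2B, a cancer-testis antigen with near-identical copies, and ACN9, an assembly factor of succinate dehydrogenase, also fell, with untreated differences from -2.27 for GPNMB to -2.82 for XAGE2B. FMO6P, a pseudogene of the flavin monooxygenases, was the single one of the 15 lowest genes that was not past -1 in the treated pair, with 12.4, 0.159, 2.16 and 0.063 CPM. It was called nonetheless, as were all 15.

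**Figure D2:**
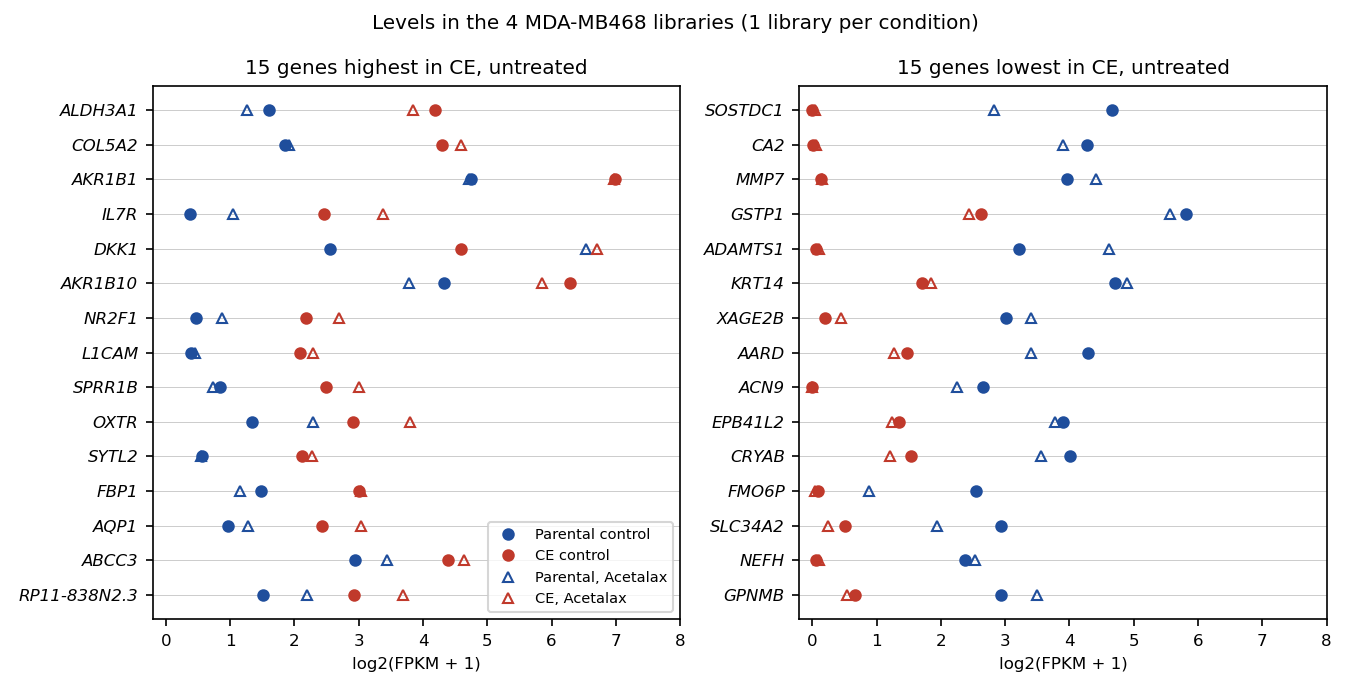
Levels on the log2(FPKM + 1) scale (x axis) of the 15 genes highest (left) and the 15 lowest (right) in untreated CE cells. Filled circles are control libraries and open triangles Acetalax-treated libraries, blue for parental and red for CE cells, 1 library each. In DKK1 the treated parental library (203 CPM) sits beside the treated CE library (229 CPM).

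A few genes had hardly any reads in CE cells. Asked after the values were seen, 8 genes had at least 2 CPM in both parental libraries and at most 3 counts in both CE libraries: ACN9, ZNF711, VSNL1, RNF128, SDC2, CNKSR2, CXorf57 and FLRT2. No gene (0) met the opposite condition. ACN9 had 309 reads in parental control and 219 in parental Acetalax cells and 0 in both CE libraries, at least 93.5-fold lower untreated. BT549 had 9.13 CPM of ACN9 in parental and 8.85 CPM in CE control cells. ZNF711, a zinc finger protein that recruits a histone demethylase, had 236 and 166 reads in parental cells and 0 in CE cells, at least 71.4-fold lower untreated. In BT549 the order was opposite, with 0.071 CPM in parental and 4.35 CPM in CE control cells. SDC2, the heparan sulfate proteoglycan syndecan-2, was at least 46.0-fold lower, CNKSR2, a scaffold of the RAS pathway, at least 39.3-fold, and FLRT2, an adhesion protein, at least 35.1-fold, each with 0 reads in both CE libraries. RNF128, a ubiquitin ligase, and CXorf57 lie next to each other on the X chromosome, at 105937024 to 106040223 and 105855160 to 105922672 of hg19, and had 169 and 121 reads in parental control against 1 and 0 in CE control cells. VSNL1, a neuronal calcium sensor, had 199 and 3. Of the 8 genes, 4 are on the X chromosome, which held 444 of the 13544 described genes placed on chromosomes. All 8 were called by edgeR, and with DESeq2 the calls of the 5 genes with 0 reads in both CE libraries (ACN9, ZNF711, SDC2, CNKSR2 and FLRT2) were lost.

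KIT, a receptor tyrosine kinase of luminal progenitor cells, came close to this set. It had 6.35, 0.023, 1.44 and 0.021 CPM, which was 1 read in each CE library, and fell (log2 fold change -7.31, SE 0.48, edgeR adjusted p = 9.72e-06).

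Most sterol and fatty acid synthesis genes were lower in the CE libraries. Of 32 measured members, 29 were below 0 in the untreated pair and 28 in the treated pair, against 43.1% and 42.0% of all genes. The median difference was -0.39 untreated and -0.42 treated, beside medians of 0.03 and 0.05 over all 13601 genes, and the summed level of the list was 7992 CPM in parental control and 5543 CPM in CE control cells. In the test, 19 of the 32 fell, beside the 5.21% of all tested genes called lower, and no member rose. The log2 fold changes of the other 13 members ran from -0.54 to 0.24. In BT549 the median of the same genes was 0.14 untreated. The calls rest on all 4 libraries: in the fit of all 8 libraries 15 members were called lower, and without 1 of the MDA-MB468 libraries 3 to 6, with 3 when either treated library was left out.

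SCD, the stearoyl-CoA desaturase that makes monounsaturated fatty acids, had 1172, 592, 951 and 454 CPM and fell by 1.09 on the log2 scale (SE 0.074, edgeR adjusted p = 1.25e-05). LSS, lanosterol synthase, had 223, 124, 190 and 125 CPM, and INSIG1, which holds the SREBP complex in the endoplasmic reticulum, 70.0, 36.4, 151 and 35.9 CPM. Both fell.

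Some members also differed between the untreated and treated parental libraries. In parental cells INSIG1 was at 70.0 CPM without and 151 CPM with Acetalax, whereas in CE cells it was at 36.4 and 35.9 CPM. Named after its value was seen, HMGCS1, the HMG-CoA synthase upstream of mevalonate, had 128, 86.7, 305 and 129 CPM. For both genes the treated difference was further below 0 than the untreated one, with -1.97 against -0.88 for INSIG1 and -1.20 against -0.53 for HMGCS1. SREBF1, the gene of the SREBP that favours fatty acid synthesis, had the difference nearer to 0 when treated, with 214, 126, 62.2 and 48.3 CPM and a difference of -0.72 untreated and -0.32 treated. SREBF2, the gene of the SREBP that favours sterol synthesis, had 352, 284, 395 and 272 CPM and fell with a log2 fold change of -0.49 (SE 0.098, edgeR adjusted p = 0.0101). SREBF1 lost its call in the fit of all 8 libraries. Whether any difference changed with the drug was not tested, since each condition had 1 library.

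**Figure D3:**
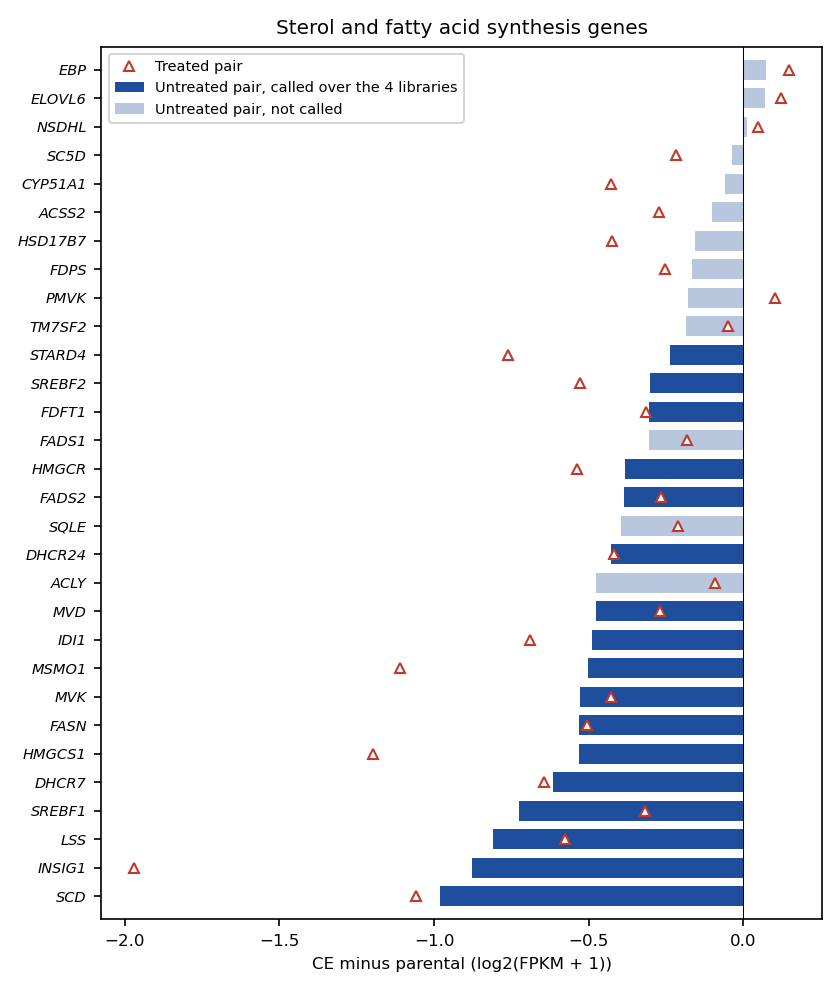
CE minus parental on the log2(FPKM + 1) scale (x axis) for 30 measured genes of sterol and fatty acid synthesis, 1 library per condition. Bars are the untreated pair, dark where the gene was called over the 4 libraries, and triangles are the treated pair. The 27 bars to the left of 0 run to -0.98 for SCD, and the triangle of INSIG1 at -1.97 lies far to the left of its bar at -0.88.

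The promoter of SREBF2 is shown because SREBF2 is the regulator of this group and was the sole member whose promoter held the searched motif. Promoters of 300 bases, from 250 before to 50 after the gene start, came from RefSeq on GRCh38.p14 and matched 26 of the members by symbol. The motif was the sterol regulatory element TCACNCCAC on either strand. It was found in 1 of the 26, and in 1.15% of all 27305 promoters. The SREBF2 promoter, chr22:41832855-41833154 on the plus strand of GRCh38.p14, has the motif in capitals with its first base 133 bases before the start.
SREBF2: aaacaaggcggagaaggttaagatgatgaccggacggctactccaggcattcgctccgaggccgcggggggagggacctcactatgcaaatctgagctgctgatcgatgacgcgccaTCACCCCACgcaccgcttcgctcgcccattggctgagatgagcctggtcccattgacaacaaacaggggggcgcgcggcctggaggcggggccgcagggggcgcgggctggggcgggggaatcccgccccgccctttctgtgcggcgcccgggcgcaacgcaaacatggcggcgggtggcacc
The match describes the sequence and not a bound site, and the absence of these letters elsewhere says nothing of other members.

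The genes of glutathione use and NRF2 went in both directions. Of 35 tested members, 5 rose and 3 fell, a total of 22.9% beside 9.22% of all genes. In the fit of all 8 libraries 5 rose and 2 fell, and when 1 MDA-MB468 library was also left out 2 fell and 1 rose, or 0 rose without parental Acetalax. GSTP1 (ENSG00000084207), the pi-class glutathione transferase that conjugates glutathione to electrophiles, lies on chromosome 11 of hg19 at 67351066 to 67354131. It had 97.6, 9.13, 82.0 and 7.80 CPM. Both CE libraries were under both parental libraries, 10.7-fold in the untreated pair, and GSTP1 fell with a log2 fold change of -3.47 (SE 0.14, edgeR adjusted p = 6.40e-07). GSTM3, a mu-class transferase, had 51.1, 18.7, 38.1 and 16.2 CPM and fell as well (log2 fold change -1.41, SE 0.15, edgeR adjusted p = 0.000175).

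Other genes of the list rose while these transferases fell. HMOX1, heme oxygenase, had 13.8, 28.0, 7.74 and 18.1 CPM, NQO1, a quinone reductase, 222, 354, 203 and 333 CPM, and GCLM, the modifier subunit of glutathione synthesis (named after its value was seen), 88.9, 144, 101 and 145 CPM. GSTK1, a mitochondrial transferase named after its value was seen, rose with a log2 fold change of 0.49. The other gene that fell was KEAP1, the adaptor that directs NRF2 to degradation, also named after its value was seen. KEAP1 had 283, 177, 209 and 170 CPM, and fell with a log2 fold change of -0.55 (SE 0.11, edgeR adjusted p = 0.0113). KEAP1 lies within a stretch of chromosome 19 where most genes were lower in CE cells, described below with the other chromosome segments. Its call was lost in the fit of all 8 libraries.

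The GSTP1 promoter is shown because GSTP1 fell most of these genes and its window held the motif. The window chr11:67583562-67583861 on the plus strand of GRCh38.p14 held 36 CpG sites, beside a median of 14 over all RefSeq promoters of the same length. The antioxidant response element core TGACNNNGC occurred in 13.6% of the 27305 promoters on either strand, and in 9 of 30 promoters of this list. In GSTP1 the match, in capitals, begins 66 bases before the start.
GSTP1: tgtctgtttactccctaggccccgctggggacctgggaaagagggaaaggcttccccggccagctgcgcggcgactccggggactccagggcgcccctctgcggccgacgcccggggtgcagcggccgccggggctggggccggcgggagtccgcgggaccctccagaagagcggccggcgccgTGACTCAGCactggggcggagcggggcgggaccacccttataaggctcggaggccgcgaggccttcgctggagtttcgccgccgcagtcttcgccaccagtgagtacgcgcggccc
DNA methylation was not measured in these libraries.

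The list of esterases and conjugating enzymes also held aldehyde dehydrogenases, aldo-keto reductases and cytochrome P450 enzymes, and some of its called genes were of these classes. Of its 31 tested members, 8 rose and 4 fell, 38.7% in all beside 9.22% of all genes. Besides ALDH3A1 and AKR1B10, the genes UGT1A8 and UGT1A6 of the glucuronosyltransferase cluster on chromosome 2 went from 0.021 CPM each in parental control to 1.47 and 1.56 CPM in CE control cells. The UGT1A genes share their last exons, so reads cannot be assigned to 1 of them with certainty. UGT1A7, which is outside the list, showed the same order at 0.021, 0.634, 0 and 0.463 CPM. CES1, a carboxylesterase that hydrolyses ester drugs, had 3.87, 10.1, 2.43 and 5.95 CPM and rose with a log2 fold change of 1.28 (SE 0.19, edgeR adjusted p = 0.00198). CES1 was named after its value was seen. AKR1C1, a hydroxysteroid dehydrogenase with near-identical neighbours, had 65.1, 23.4, 45.8 and 15.7 CPM and fell, as did UGT8, the galactosyltransferase of myelin lipids, at 13.9, 4.94, 13.2 and 6.50 CPM.

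Of 13 tested drug efflux pumps, 4 rose (30.8%, beside 4.01% of all genes) and none fell. Besides ABCC3, these were ABCC2, an export pump for conjugates at the apical membrane, with 1.62, 6.57, 1.75 and 7.99 CPM, and ABCA2, a lipid transporter, with 61.0, 85.1, 62.3 and 89.2 CPM, whose call was lost with DESeq2 and in the fit of all 8 libraries. The fourth was ABCB1, P-glycoprotein, named after its value was seen, with 1.48, 2.74, 2.00 and 4.04 CPM (log2 fold change 0.89, SE 0.22, edgeR adjusted p = 0.0295). ABCC1, the pump of the same family that exports glutathione conjugates, did not pass the test, at 56.7, 73.6, 82.1 and 78.7 CPM (log2 fold change 0.09, SE 0.14, edgeR adjusted p = 0.769).

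TRPM4 RNA was slightly higher in the CE libraries without passing the test. TRPM4 had 49.0, 60.2, 47.8 and 59.0 CPM, a difference of 0.26 untreated and 0.27 treated (log2 fold change 0.23, SE 0.13, edgeR adjusted p = 0.316). The study reports that the CE cells had hardly any TRPM4 protein on Western blots, while their transcript was unchanged. These RNA values therefore do not describe the level of the protein. ABCC8, the sulfonylurea receptor that can pair with TRPM4, had no more than 0.105 CPM in any of the 4 libraries. Of 13 tested TRP channel genes, 2 rose and 1 fell, 23.1% in all beside 9.22% of all genes. PKD2, polycystin-2, had 8.58, 17.5, 12.0 and 18.5 CPM and rose, while TRPM2 and MCOLN3 differed by -0.20 and 0.24 untreated and were not called.

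Genes that move ions and water were called in both directions, 4 higher and 8 lower of 40 tested, beside 4.01% and 5.21% of all genes. AQP1 had 3.11, 14.2, 4.63 and 23.3 CPM. ATP1B1, the beta subunit of the sodium-potassium pump, had 249.6, 109, 291 and 143 CPM and fell with a log2 fold change of -1.18 (SE 0.10, edgeR adjusted p = 6.27e-05). ATP1B3, another beta subunit of the pump, named after its value was seen, fell too, with a log2 fold change of -0.56 (SE 0.11). SLC12A2, the cotransporter that brings sodium, potassium and chloride into the cell, had 272, 144, 201 and 94.8 CPM and fell by 1.07 on the log2 scale (SE 0.11, edgeR adjusted p = 0.00015). KCNK5, an alkaline-activated potassium channel on chromosome 6, fell as well, from 40.1 to 24.0 CPM untreated, and lost its call in the fit of all 8 libraries. Of 22 tested calcium handling genes, 1 rose and 1 fell, 9.09% in all and near the 9.22% of all genes. The gene that rose was ATP2B4, a calcium pump of the plasma membrane, at 83.3, 167, 138 and 229 CPM.

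Genes of the cornified envelope and the S100 family were mostly called higher. Of 21 tested S100 and cornified envelope genes, 11 rose and 2 fell, beside 4.01% and 5.21% of all genes, with a median of 0.28 untreated and 0.31 treated. Besides SPRR1B, SPRR3 rose from 0.021 CPM to 0.612 CPM untreated. IVL, involucrin, and TGM1, the transglutaminase that crosslinks the envelope, both named after their values were seen, had 16.3, 29.0, 8.24 and 26.3 CPM and 10.7, 20.2, 7.39 and 21.2 CPM. S100A2 and S100A7, calcium-binding proteins of the same cluster on chromosome 1, fell, S100A2 from 103 to 29.6 CPM and S100A7, psoriasin, from 291 to 130 CPM untreated. S100A3, from the same cluster, rose from 8.12 to 14.4 CPM, a call lost in the fit of all 8 libraries. Calls in this list fell to 8 higher and 2 lower in the fit of all 8 libraries, and to between 2 and 4 higher when 1 MDA-MB468 library was also left out, with 2 without parental Acetalax and 3 without CE Acetalax.

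The keratins went in both directions. KRT81, a hair keratin, had 299, 749, 567 and 1394 CPM and rose (log2 fold change 1.25, SE 0.074, edgeR adjusted p = 6.24e-06). Its near-identical copies make the value uncertain. KRT18 and KRT8, the pair of simple epithelia, rose, KRT18 at 559, 830, 589 and 1181 CPM. KRT14 and KRT17, keratins of basal cells, fell, KRT17 at 374, 270.2, 1217 and 1128 CPM, with its call lost under DESeq2 and in the fit of all 8 libraries. KRT6A rose while KRT6B, its near-identical neighbour, fell, at 4.63, 10.6, 24.7 and 52.7 CPM for KRT6A and 11.5, 4.64, 74.4 and 24.8 CPM for KRT6B. Of 20 tested keratins, 5 rose and 4 fell, 45.0% in all beside 9.22% of all genes.

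Mesenchymal and contractile genes were called in both directions. Of 23 tested, 8 fell and 2 rose, 43.5% in all beside 9.22% of all genes. Of the 20 measured, 12 were below 0 untreated, with a median of -0.17 in both pairs. TNC, the matrix protein tenascin-C, had 63.4, 20.4, 102 and 37.6 CPM, and CALD1, caldesmon of the actin cytoskeleton, 219, 88.4, 358 and 161 CPM. MYL9, a myosin light chain, had 5.26, 0.702, 7.64 and 0.400 CPM, and TPM2, beta-tropomyosin, 76.6, 35.8, 102 and 51.6 CPM. The parental library was above the CE library in both pairs for each of these genes. FN1, fibronectin, and VIM, vimentin, also fell, VIM from a level of 4.63 CPM to 1.77 CPM untreated. The 2 that rose were LOXL2, a collagen crosslinking enzyme, and FAP, a cell surface protease, both named after their values were seen.

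Of 39 tested junction and polarity genes, 3 fell (7.69%, near the 5.21% of all genes called lower) and none rose. DSC3, a desmosomal cadherin, had 56.9, 12.4, 48.6 and 7.13 CPM and fell by 2.54 on the log2 scale (SE 0.18, edgeR adjusted p = 1.37e-05). DSC2, its neighbour on chromosome 18, had 107, 62.9, 76.4 and 38.2 CPM and fell too. CDH1, E-cadherin, had 119, 155, 132 and 147 CPM and was not called (edgeR adjusted p = 0.348). The other that fell was DSP, desmoplakin of the desmosome, named after its value was seen (log2 fold change -0.36, SE 0.081).

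Matrix proteases and their inhibitors were called in 16 of 30 cases (53.3%, beside 9.22% of all genes), 9 higher and 7 lower. KLK6, a kallikrein protease, had 96.8, 239.8, 118 and 298 CPM and rose. TIMP3, an inhibitor of metalloproteinases, had 70.1, 14.4, 34.0 and 6.22 CPM and fell (log2 fold change -2.43, SE 0.15, edgeR adjusted p = 8.02e-06). The basement membrane collagens COL4A1 and COL4A2, which lie head to head on chromosome 13, rose together. COL4A2 had 11.9, 40.8, 9.29 and 43.99 CPM and COL4A1 2.92, 13.02, 4.74 and 16.8 CPM. COL4A5, on the X chromosome, fell at 82.3, 58.6, 79.3 and 47.1 CPM. Of 17 tested collagens, 4 rose and 4 fell, 47.1% in all beside 9.22% of all genes.

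Lineage and signalling genes were called in both directions. Of 17 tested breast lineage factors, 2 rose and 7 fell, beside 4.01% and 5.21% of all genes. FOXC1, a transcription factor of basal-like tumors, had 120.1, 50.4, 125 and 41.6 CPM and fell, PROM1, the stem cell marker CD133, fell from 114 to 63.0 CPM untreated, and TP63, the p63 transcription factor of basal and squamous epithelium, rose from 0.802 to 6.91 CPM untreated. TP63 thus rose while KRT14 and KRT17 fell. ID1, a target of BMP signals, had 35.2, 93.3, 10.5 and 34.6 CPM and rose (log2 fold change 1.49, SE 0.14, edgeR adjusted p = 0.000104), and TGFBI, a matrix protein induced by TGF-beta, rose from 18.1 to 46.0 CPM. TGFB1 itself, the ligand, fell from 28.0 to 13.3 CPM and ID4, on chromosome 6, from 134 to 73.7 CPM untreated. In the TGF-beta and BMP list 8 of 35 tested genes rose and 2 fell, 28.6% in all beside 9.22% of all genes. NOTCH3 fell from 818 to 504 CPM and WNT5B, a WNT ligand, from 4.36 to 0.634 CPM untreated. INSR, the insulin receptor, fell from 62.8 to 29.0 CPM, and EGFR, which is amplified in this line, had 3748, 3285, 10474 and 6946 CPM and fell by 0.46 on the log2 scale (SE 0.079, edgeR adjusted p = 0.00471), a call lost with DESeq2 and in the fit of all 8 libraries.

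Mitosis and respiratory chain genes had no calls, beside 9.22% of all genes. Of 32 tested mitosis genes, 0 were called by edgeR or DESeq2 and 6 had an unadjusted edgeR p under 0.05. Of 38 tested nuclear genes of the respiratory chain, 0 were called by either tool and 2 had such a p. The mitosis genes had a median of -0.0035 untreated and 0.38 treated, with 29 of 31 measured members higher in CE cells when both were given drug. The immediate early genes had a median of 0.11 untreated and -0.31 treated, and the targets of ATF4 had 0.09 and -0.24. The proteasome genes had 1 call in 34 (2.94%), PSMB1 on chromosome 6, which fell from 116 to 62.4 CPM untreated. The ribosomal protein genes had 2 calls in 49 (4.08%), RPS18 and RPS12, both lower and both on chromosome 6, with neither called by DESeq2. Of 44 tested interferon-stimulated genes 7 rose and 2 fell, 20.5% in all beside 9.22% of all genes. Their median was 0.20 untreated in MDA-MB468 against 2.82 in BT549. IFIT1 had 2.88, 6.75, 0.412 and 1.79 CPM and IFIT5 9.42, 15.7, 6.79 and 16.7 CPM.

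**Figure D4:**
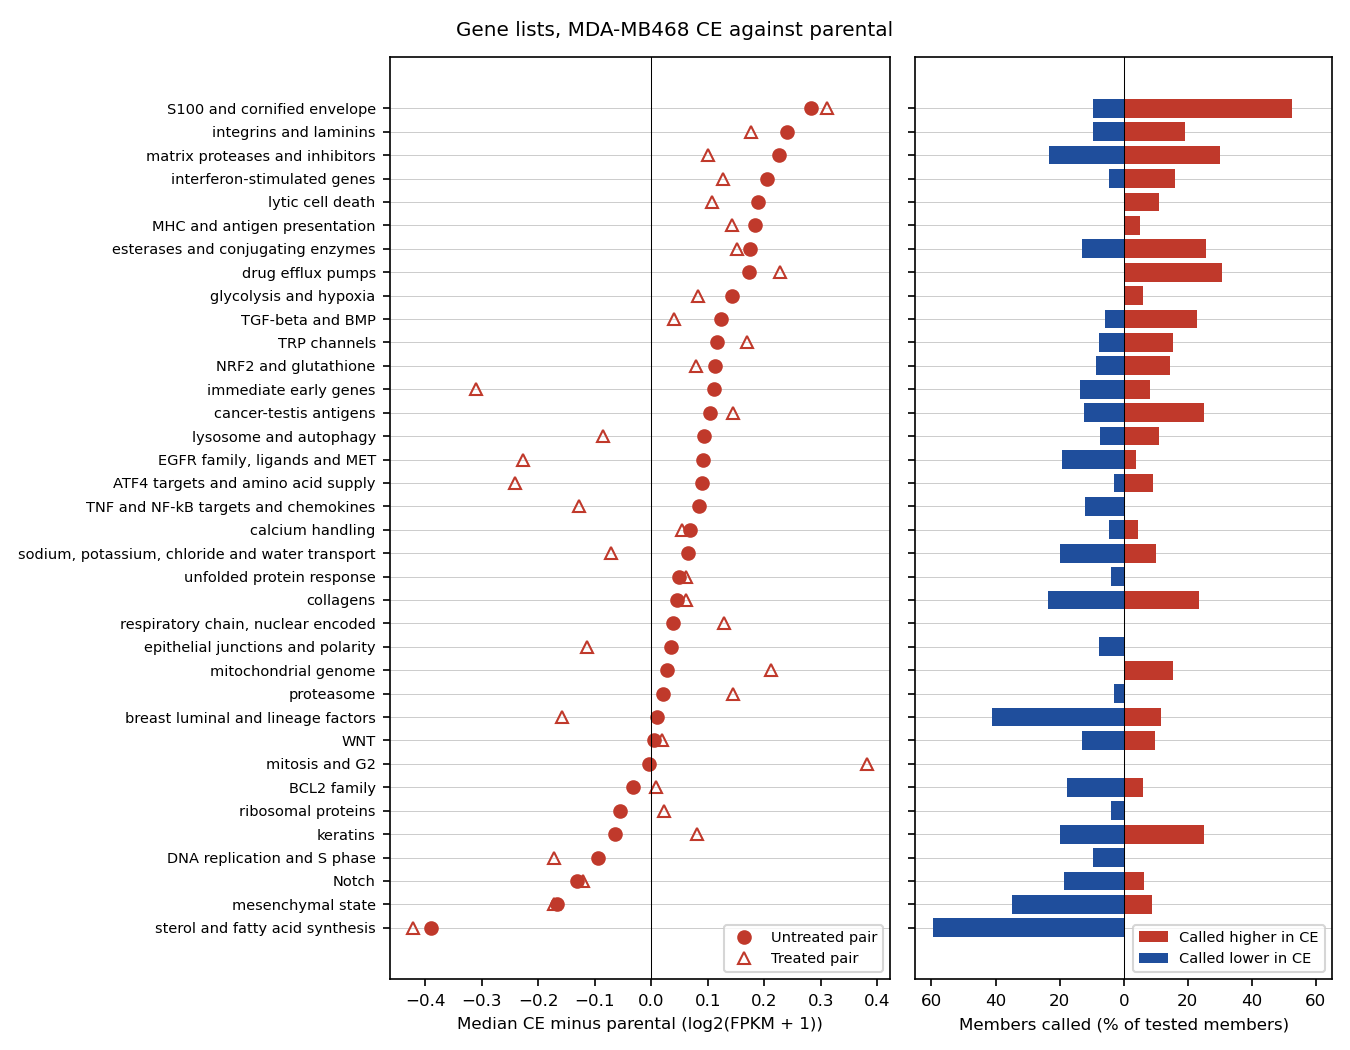
Left, median CE minus parental on the log2(FPKM + 1) scale over the measured members of each gene list with at least 5 of them, the cell type marker lists left out, in the untreated (circles) and the treated pair (triangles). Right, the percent of tested members called higher (red, to the right) or lower (blue, to the left) over the 4 libraries. Of the lists shown, the sterol list is lowest at -0.39 and -0.42 with 19 of 32 members called lower, and the S100 and cornified envelope list is highest untreated at 0.28 with 11 of 21 called higher.

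A few genes that were higher in untreated CE cells were lower in treated CE cells than in treated parental cells. These 5 genes, named after their values were seen, were F3, FOSL1, GPR115, CLCF1 and RP1-140K8.5, and all were among the 59 past 1 untreated. F3, tissue factor that starts coagulation, had 48.1, 130.0, 833 and 582 CPM. FOSL1, the AP-1 subunit FRA1, had 6.64, 19.3, 360.1 and 171 CPM. In each of the 5 the treated parental library was above the untreated one and above the treated CE library. Like DKK1, none of the 5 was called over the 4 libraries. With 1 library per condition, whether the CE effect differs between untreated and treated cells was not tested.

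Differences also followed position on the chromosomes. On chromosome 6, 549 of 681 genes (80.6%) were below 0 in the untreated pair, beside 43.1% of all genes, with a median difference of -0.25 untreated and -0.23 treated. Chromosome 21 had a median of -0.14 untreated and -0.17 treated, and the X chromosome 0.15 and 0.20. The medians of the other 20 chromosomes ran from -0.03 to 0.10 untreated. In the test, 194 of 879 genes of chromosome 6 (22.1%) were called lower and 11 (1.25%) higher, and of the genes on all other sequences 4.33% were called lower. In BT549 the median of chromosome 6 was -0.25 untreated and -0.30 treated, and chromosomes 9, 22 and 14 lay lower at -0.43, -0.38 and -0.36 untreated.

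Within chromosomes, stretches were marked where the median of 25 neighbouring genes was at least 0.3 in size in the untreated pair, on a log2(CPM + 0.5) scale. The untreated values below therefore describe how they were chosen, and the treated values are the check. Calls in a stretch come from a test that includes the untreated pair, so they follow in part from that choice. The 26 stretches held 371 genes, of which 154 were on chromosome 6, 141 on X, 57 on chromosome 19 and 19 elsewhere. Of the 6 stretches with at least 20 genes, the one with the lowest median covered the end of the long arm of chromosome 6, from 144606837 to 167319939 of hg19, with 64 genes from UTRN to FAM103A2P. Its median was -0.71 untreated and -0.82 in the treated pair, where 61 of the 64 genes were lower. In the test 51 of the 64 were called lower, 8 to 21 when 1 MDA-MB468 library was left out of the fit of all 8 libraries. ACAT2, a thiolase of cholesterol synthesis, had 104, 35.1, 98.9 and 35.4 CPM there, SYNJ2, a phosphatase of inositol lipids, 32.5, 13.5, 43.9 and 19.1 CPM, and TIAM2, an activator of RAC1, 5.12, 1.81, 14.3 and 3.74 CPM. All 3 fell. In BT549 the median of the same 64 genes was -0.25 untreated and -0.28 treated.

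The second group of stretches lay on the short arm of the X chromosome and was higher in CE cells. From 37696010 to 55785207 of hg19, 98 genes from DYNLT3 to RRAGB had a median of 0.39 untreated and 0.44 treated. In the treated pair 87 of 98 were above 0. The test, which includes the untreated pair that chose the stretch, called 24 of 98 (24.5%) higher, beside 4.01% of all genes. From 11129421 to 23704516, 43 genes had a median of 0.32 untreated and 0.30 treated, with 37 of 43 above 0 in the treated pair and 8 of 43 (18.6%) called higher. PORCN, the acyltransferase of WNT proteins, rose in the first from 6.15 to 12.9 CPM and MAP7D2, a microtubule protein, in the second from 3.29 to 10.1 CPM untreated. In BT549 these stretches had medians of 0.08 and 0.11 untreated. CNKSR2, with 0 reads in CE cells, lies inside the second of these stretches of higher genes, and XAGE2B inside the first.

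Another group lay on the short arm of chromosome 19. From 9938568 to 11039357 of hg19, 31 genes had a median of -0.45 untreated and -0.40 treated, beside 0.00062 untreated and 0.04 treated in BT549. In the treated pair 26 of 31 were below 0, and the test called 20 of 31 (64.5%) lower. KEAP1 lies here, with ICAM1 and ICAM5, adhesion molecules that are neighbours. ICAM1 had 43.1, 17.3, 117 and 48.8 CPM and ICAM5 14.5, 3.67, 43.6 and 7.49 CPM, and both fell. A second stretch from 11488236 to 12551926 held 26 genes, with zinc finger genes such as ZNF44 and ZNF69 among those that fell (both calls lost in the fit of all 8 libraries), and had a median of -0.38 untreated and -0.30 treated. Of these 26, 3 (11.5%) were called lower. In BT549 the median of the same 26 genes was -0.06 untreated and -0.47 treated. Counts of DNA copies were not measured here, so the part of gene dosage in these values was not tested.

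**Figure D5:**
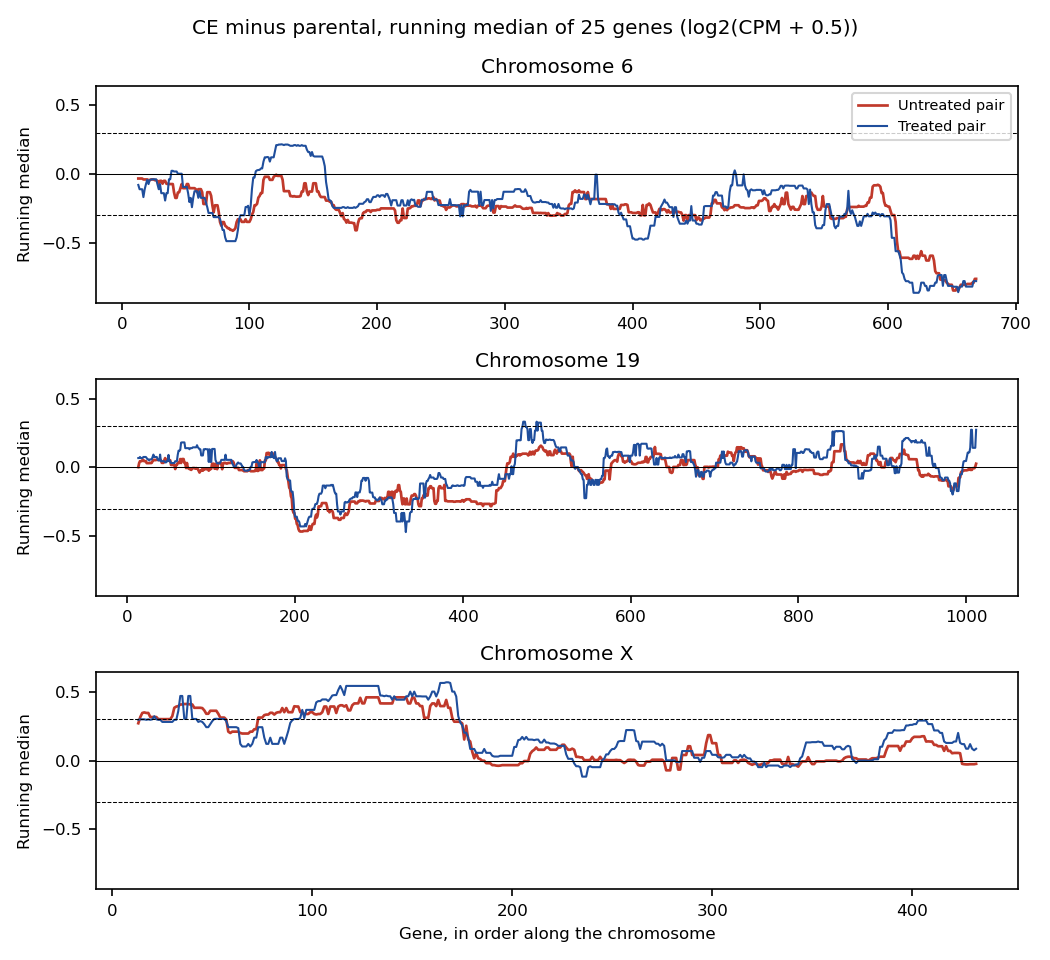
Running median of CE minus parental over 25 neighbouring genes on the log2(CPM + 0.5) scale (y axis) in the order of genes along chromosomes 6, 19 and X (x axis), for the untreated and the treated pair, 1 library per condition. Dashed lines mark -0.3 and 0.3. The curves step down near the end of chromosome 6, where 64 genes had medians of -0.71 and -0.82, dip on the short arm of chromosome 19, and stay above 0 over the short arm of X.

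The CE effect in MDA-MB468 differed from that in BT549 for many genes. A fit of all 8 libraries had the line, the CE effect of each line and the Acetalax effect of each line. It called a difference of CE effects for 2405 of 19693 genes (12.2%), 967 (4.91%) higher and 1438 (7.3%) lower in MDA-MB468 relative to BT549. Of the 59 genes past 1 higher in untreated MDA-MB468 CE cells 24 were called, and of the 98 lower genes 61. The untreated pair that chose these genes is part of this fit, so both counts follow in part from that choice. In untreated BT549 CE cells, 8 of the 59 and 4 of the 98 were past 1 in the same direction, and 6 and 9 were past 1 in the opposite one. The share of all genes past 1 in BT549 was not computed, so whether these counts differ from that share was not tested. The genes with the same direction included COL5A2, at 391 and 1005 CPM in BT549 parental and CE control cells, and NR2F1, at 5.32 and 43.3 CPM.

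TIMP3 had the smallest adjusted p of the difference between the lines. It fell in MDA-MB468 CE cells, whereas in BT549 it went from 0.095 CPM in parental to 928 CPM in CE control cells and from 0.138 to 872 CPM with drug (difference of log2 fold changes -15.38, SE 0.22, edgeR adjusted p = 8.73e-08). GSTP1 also differed, at 192 and 278 CPM in BT549 parental and CE control cells (difference -4.03, SE 0.15, edgeR adjusted p = 6.70e-06). INSIG1 was at 65.6 and 197 CPM in BT549, and SCD at 1036 and 2699 CPM, and both differed between the lines, by -3.05 (SE 0.34, edgeR adjusted p = 0.0012) and -2.33 (SE 0.13, edgeR adjusted p = 5.38e-05). ALDH3A1 and AKR1B1 differed, by 4.32 (SE 0.32) and 2.37 (SE 0.14) on the log2 scale, with BT549 at 1.56 and 0.830 CPM for ALDH3A1 and 128 and 111 CPM for AKR1B1. For KRT14 the difference was 0.06 (SE 0.31, edgeR adjusted p = 0.953), with under 1 CPM in every BT549 library.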

How the data were processed

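Polyadenylated RNA of 8 cultures was sequenced from directional libraries. The authors deposited 1 table of raw read counts per gene on hg19, and FPKM and comparison columns made by them were not used here. STAR 2.7.11b is the aligner named in the submitters' processing notes, and the strand setting and the gene annotation behind the counts are not given in the sources used here, so genes that overlap on opposite strands are uncertain. The table held 58154 entries for 55679 identifiers, each of which was kept once, and 28 symbols turned into dates were restored through their identifiers. CPM was computed from the counts, and FPKM with merged exon lengths of GENCODE v44lift37 for 55663 identifiers. Differences used a pseudocount of 1 and genes whose CPM averaged 1 or more. Tests used edgeR 4.0.16 (quasi-likelihood, Benjamini-Hochberg adjustment, threshold 0.05) in R 4.3.3, and DESeq2 1.42.0 as an alternative, after both were tested on simulated data. The fit of the 4 MDA-MB468 libraries had terms for CE and Acetalax, and the fit of all 8 had the line, with CE and Acetalax within each line. Named genes were the 15 highest and 15 lowest untreated, TRPM4 and ABCC8, up to 4 members of each gene list by untreated difference, the 5 extremes in each direction of each fit and up to 3 genes per stretch, some of which are not reported here. The comparison and the lists were chosen with earlier results of these data known.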

Additional observations from a re-analysis of the deposited data

Results flagged for a closer look

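The CE effect differed between MDA-MB468 and BT549 for 2405 genes by edgeR's test of the difference over all 8 libraries. The values here are log2 fold changes of CE against parental cells in MDA-MB468 minus those in BT549. Among the genes highest in untreated MDA-MB468 CE cells, the difference was 4.32 for ALDH3A1, 1.39 for COL5A2, 2.37 for AKR1B1, 2.77 for L1CAM, 3.19 for OXTR, 1.92 for SYTL2, 4.735 for FBP1, 1.69 for AQP1 and 1.61 for ABCC3. The call of AQP1 was lost without any 1 of the 8 libraries, with values from 1.34 to 1.96.

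Among the lowest genes it was -9.99 for SOSTDC1, -8.24 for CA2, -4.03 for GSTP1, -7.81 for ADAMTS1, -3.90 for AARD, -11.0 for ACN9, -2.58 for EPB41L2, -6.33 for CRYAB, -8.29 for SLC34A2, -5.28 for NEFH and -4.22 for GPNMB. The lowest differences of all called genes were -17.43 for CHRDL1, -17.02 for ZNF711, -15.38 for TIMP3, -13.89 for CNKSR2 and -12.56 for IGFBP5. The highest were 8.64 for PGM5, 7.99 for MROH2A, 7.89 for PTPRO, 6.92 for DPYS and 6.795 for MARCHF4. Where a group held 0 reads, such a value depends on the prior count and is no measure of size.

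The sign of the difference was opposite in the untreated and the treated MDA-MB468 pair for 5 genes that were at least 1 higher untreated. In the treated pair CE minus parental was -1.07 for FOSL1, -0.51 for F3, -0.058 for GPR115, -0.027 for CLCF1 and -0.30 for RP1-140K8.5. These opposite signs were not tested.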

How the results depend on the processing

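The number of genes past 1 depended on the scale: 157 untreated and 225 treated became 375 and 556 with CPM in place of FPKM and 482 and 673 with a pseudocount of 0.1, and past members of the gene lists went from 38 to 74 and 80. The stretches, drawn anew, held 240 genes in place of 371 with windows of 51 genes. They held 307 with genes averaging at least 5 CPM and 486 when scaled by edgeR's TMM factors. The 4-library fit called 1647 genes, 1065 with DESeq2 (1053 shared), 2496 with no filter and 870 in the fit of all 8 libraries (862 shared), and 297 to 482 when 1 MDA-MB468 library was also left out (297 without parental Acetalax, 335 without CE Acetalax, 413 without parental control and 482 without CE control). The cause was not tested. The 2405 genes that differed between the lines became 1296 to 3235 without 1 library, with 1296 without parental and 1360 without CE Acetalax of MDA-MB468. Of the named genes, 29 lost their call with DESeq2, 2 with other size factors, 31 in the fit of all 8 libraries and 62 to 77 without 1 library more. Of the named genes called in the main fits, none reversed its direction in these alternative fits. Each group had 1 library, so no replicate numbers pair the groups. The 4-library fit, with treatment as a term, compared CE with parental within each treatment, with 1 residual degree of freedom. With 1 library per condition, the precision of an untreated difference is unknown beyond counting error.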
